A study of Mus musculus with 63 samples.

Results

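The step across birth was examined in pancreatic β cells of ICR mice by setting the 3 libraries of day 1 neonates (P1) against the 4 libraries of late fetuses (E18.5, in days of embryonic age). These are all the libraries that the labels give to those ages, 7 of the 63 in the series. Both groups share the genotype Cherry/+; Ins2-Cre/+ on the outbred ICR strain, and neither carries a disease label or a drug. Islets were isolated, dissociated with trypsin and sorted for the red fluorescent protein mCherry, so the population is what this reporter, in animals that carry Cre under an *Ins2* driver, marks as β cells. Sex is not given for either age, and the labels do not say how many animals a library holds or whether libraries come from separate litters. The p-values therefore measure only the spread between libraries. In the gene tests that spread was estimated over all 63 libraries of the series, and the tests of marker shares used these 7 alone. RNA of E18.5 1 and P1 1 was taken with Qiagen columns, and RNA of E18.5 2, 3 and 4 and of P1 2 and 3 with TRIzol. The 7 libraries held between 34088890 and 43554769 expected counts.

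At birth the steady supply of glucose through the placenta and of placental lactogens, hormones of the prolactin family, ends, and the pup turns to milk, which is rich in fat. The fetal β cell already makes insulin, but its secretion in response to glucose matures only after birth. Proinsulin is made at the endoplasmic reticulum (ER), where chaperones and disulfide isomerases fold it, and the load on that system follows how much insulin is made.

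Insulin transcripts marked every library as rich in β cells, but other cell types were unevenly represented. *Ins1* and *Ins2* together took between 24.9 and 35% (30.5 and 30.1% in E18.5 2 and 3) of the counts in the fetal libraries, and 28.2, 16.4 and 10.8% in P1 1, 2 and 3. Stromal genes (18 genes of matrix and vessel walls) held 0.0106 to 0.0406% at E18.5 against 0.0728% in P1 1, 1.59% in P1 2 and 2.91% in P1 3. The P1 libraries thus differed widely among themselves, and all 3 lay above the fetal range (log2 difference of means 4.99, exact two-sided permutation test over 35 regroupings, p = 0.0286, the smallest possible, and 0.152 adjusted over 16 lists). Myeloid genes (20 genes) held 0.00922 to 0.0159% at E18.5, 0.0115% in P1 1, 0.199% in P1 2 and 0.243% in P1 3 (exact permutation p = 0.0857, adjusted 0.203). Acinar genes (24 genes for digestive enzymes) held 0.0641 to 0.331% at E18.5, 0.0801% in P1 1, 1.3% in P1 2 and 0.329% in P1 3 (exact permutation p = 0.257, adjusted 0.316). By summed share P1 1 was therefore inside the fetal range for myeloid and acinar genes and close above it for stroma. P1 2 and P1 3 carried much more of both stroma and myeloid genes. Gene by gene, 12 of 18 stromal and 6 of 20 myeloid genes of P1 1 lay above every fetal library (1 below in each list), where 23.3% of all genes did. Below every fetal library lay 11 of its 24 acinar genes, against 18.7% of all genes. Its summed mesothelial and neutrophil shares were inside the fetal range, yet 7 of 8 and 6 of 10 of these genes lay above it. Endothelial genes held 0.0023 to 0.00845% at E18.5 and 0.0123, 0.0891 and 0.113% in P1 1, 2 and 3. Mast cell genes held 0.00136 to 0.00344% at E18.5 and 0.0133, 0.0618 and 0.124%, so P1 1 lay above the fetal range for both.

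P1 1 and E18.5 1, the 2 Qiagen libraries, stood apart in other ways. P1 1 held 0.0419% of its counts in 19 kidney genes, against at most 0.00251% in the other 6 libraries and at most 0.00275% in the 56 libraries of other groups. Its counts included 295 of *Umod*, the loop of Henle protein uromodulin, 2917 of *Aqp2*, the collecting duct water channel, and 2728 of *Slc34a1*, the phosphate carrier of the proximal tubule. *Umod* had no count in the other 6 libraries. E18.5 1 held 0.278% in 15 genes of the intestinal epithelium, against 0.00608 to 0.0126% in the other fetal libraries and at most 0.0330% at P1. Its level of *Apoa4*, an apolipoprotein of enterocytes, was 1213 CPM (counts relative to library size, scaled by the trimmed mean of M-values) against 0.0176 to 25 CPM in the other fetal libraries. The kidney and intestinal lists were chosen after these values had been seen.

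**Figure D1:**
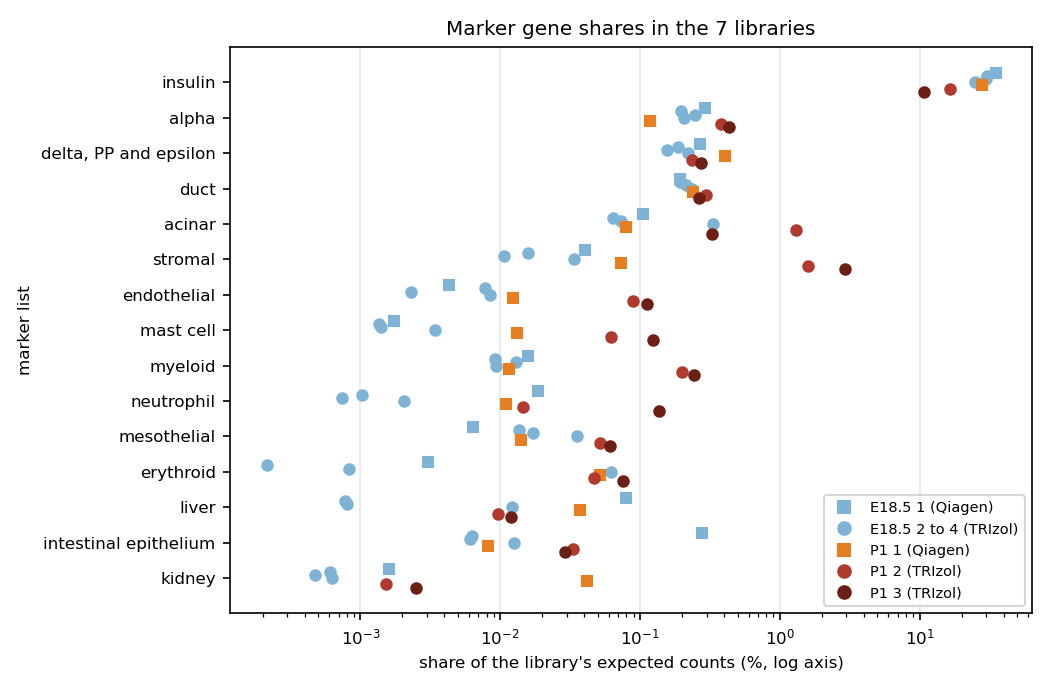
Share of each library's expected counts (log axis, %) held by marker lists of β cells (insulin), other islet cells and other tissues, 1 point per library, squares for Qiagen and circles for TRIzol. P1 2 and P1 3 lie to the right for stromal (1.59 and 2.91%) and myeloid genes, P1 1 for kidney genes (0.0419%) and E18.5 1 for intestinal genes (0.278%).

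Between the 2 ages, 1938 of 16092 genes tested changed, of which 1388 were higher at P1 (8.63%) and 550 lower (3.42%; edgeR quasi-likelihood test with extraction as a covariate, adjusted p below 0.05). The 12 largest rises included markers of other cells: *Tpsab1*, a mast cell tryptase, *Lrrn4*, a mesothelial gene, *Fap*, a protease of fibroblasts, *Ngp*, a granule protein of neutrophil precursors, and *Pdgfra*, the platelet-derived growth factor receptor of mesenchyme. *Tpsab1* was at 0, 0, 0 and 0.182 CPM in the fetal libraries and at 9.69, 41.2 and 81.0 CPM in P1 1, 2 and 3. *Lrrn4* reached 3.55, 26.1 and 38.6 CPM at P1 and at most 0.133 CPM at E18.5. Both stood above every fetal library in all 3 P1 libraries. *Has1*, a hyaluronan synthase, *Chil3*, a secreted chitinase-like protein of macrophages and granulocytes, *Galnt16*, *Osr2*, *Rem1*, *Tpsb2* and *Camp* complete the 12. The 12 largest falls were *Prlr*, *Zfp568*, *P2ry1*, *Abhd2*, *Akr1c19*, *Sphkap*, *Nnat*, *Gpr119*, *Plcxd2*, *Gabbr2*, *Zdbf2* and *Tnfrsf9*, between -1.91 and -1.53. Of the marker lists, 16 of 18 stromal, 17 of 20 myeloid, 7 of 9 mast cell, 6 of 8 mesothelial and 5 of 10 neutrophil genes rose and none fell. Other lists had fewer calls. Of 14 endothelial genes 3 rose, as did 3 of 13 lymphoid genes, and 1 of 9 α cell genes fell. None of the 24 acinar, 13 duct or 12 liver genes was called by edgeR. With a term for log2 stromal share in the fit, 90 genes were called (0.559%), 79 higher (0.491%) and 11 lower. Without P1 2 and P1 3, which leaves P1 1 alone and assumes that it varies like the other groups, 32 genes were called (0.190%), all of them higher (edgeR; 201 genes were lower at an unadjusted p below 0.05). Without P1 3 the count was 299 (1.83%), without P1 1 3281, and without P1 2 950 (5.80%). Fewer β cells in a sort and less RNA per β cell cannot be told apart in such bulk libraries.

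**Figure D2:**
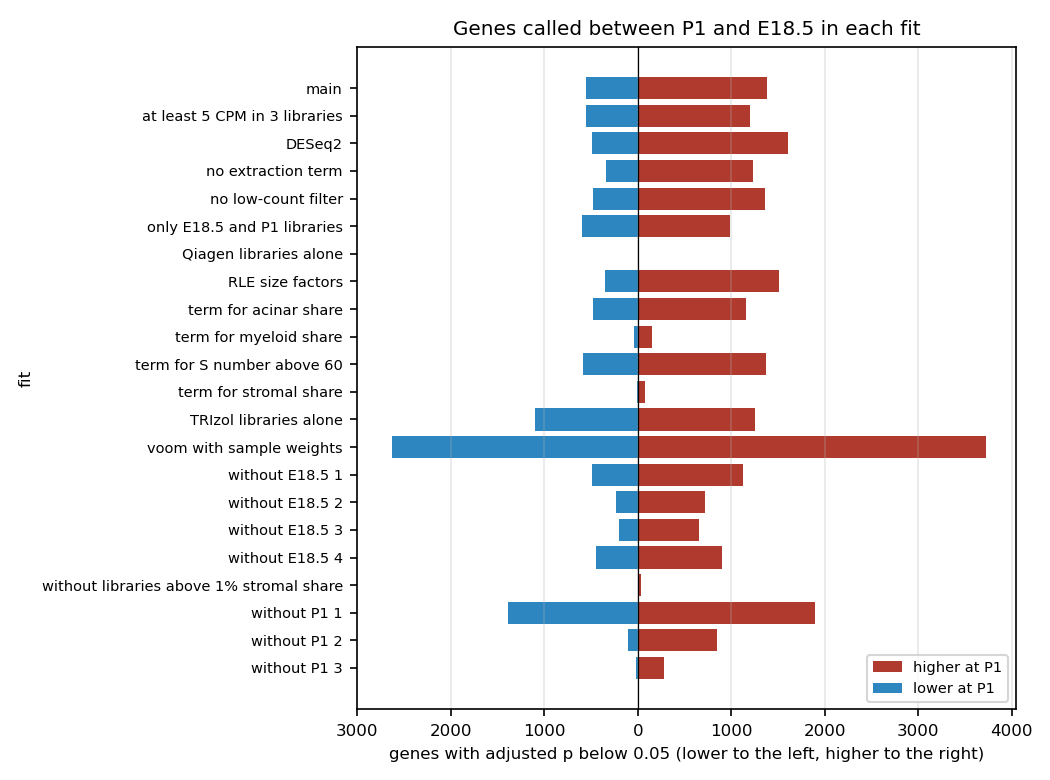
Number of genes with an adjusted p below 0.05 that were higher (right) or lower (left) at P1, in each fit. The 1388 higher and 550 lower genes of the main fit became 79 and 11 with a stromal term and 32 and 0 without the libraries above 1% stromal share.

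To see what the 3 neonatal libraries have in common, each was also set against the fetal range on its own. Every P1 library lay below every fetal library for 1335 of the genes (8.30%) and above for 2039 (12.7%). P1 1, the lowest of the 3 in stroma and acinar genes, lay below all 4 fetal libraries for 18.7% of genes and above for 23.3%. The gene lists below were read against these shares.

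**Figure D3:**
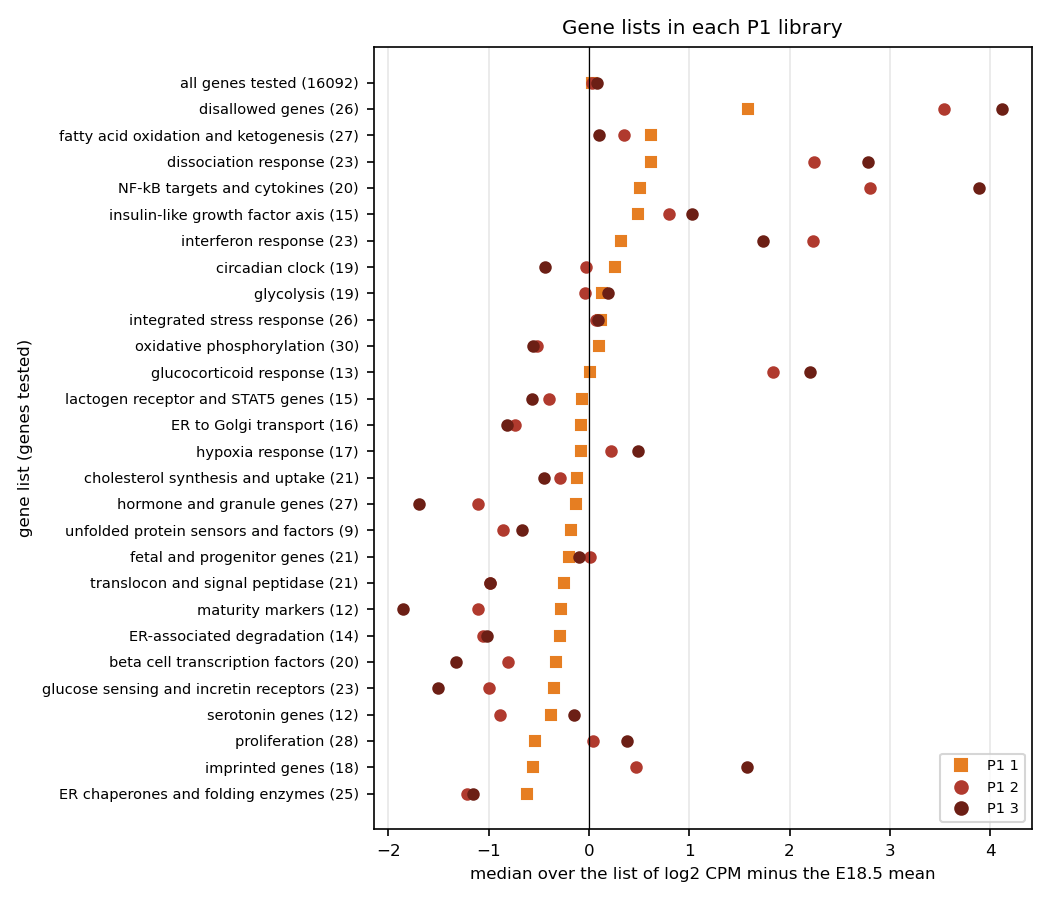
Median over each gene list, cell type marker lists left out, of log2 CPM in a P1 library minus the E18.5 mean, 1 point per P1 library, lists ordered by P1 1. Among the lists plotted, the ER chaperones have the lowest median in P1 1 (-0.62) and the disallowed genes the highest (1.59), and P1 2 and P1 3 lie farther from 0 for most lists.

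The folding machinery of the ER was lower in all 3 neonatal libraries. Of 25 chaperones and folding enzymes, 15 fell at P1 and none rose, where 3.42% of all genes fell. The median log2 difference was -1.0 against 0.04 over all genes. In 22 of the 25 every P1 library lay below every fetal one. *Hsp90b1*, the ER form of the chaperone HSP90, was at 1674, 1831, 1864 and 1964 CPM in the fetal libraries and at 933, 887 and 784 CPM in P1 1, 2 and 3. The 3 neonatal values lay close together, and the groups did not overlap. The difference was -1.09 ± 0.24 (log2 ± SE, adjusted p = 0.00206, edgeR), and *Hsp90b1* was called again with each of the 7 libraries left out in turn (adjusted p 0.00264 to 0.0342), though not with the stromal term (-0.91, adjusted p = 0.0933).

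*Pdia6*, a disulfide isomerase, had 1503, 1365, 1421 and 1323 CPM before birth and 677, 582 and 627 CPM after it (-1.18 ± 0.36, adjusted p = 0.0245, edgeR). Here too the P1 libraries were close to each other and far below the fetal range. *Sdf2l1*, a partner of ER chaperone complexes, went from 438 to 559 CPM at E18.5 to 218, 153 and 175 CPM, the largest fall on the log2 scale among the called members (-1.48 ± 0.49, adjusted p = 0.0397, edgeR). *Pdia6* and *Sdf2l1* were picked out after their values had been seen. *Hspa5* codes for BiP, the main ER chaperone of the HSP70 family. Its levels were 3160, 3277, 3481 and 3695 CPM at E18.5 and 2473, 1275 and 1430 CPM at P1, so that P1 1 lay between the fetal libraries and the other neonates. Its difference was -1.0 ± 0.32 (adjusted p = 0.0317, edgeR).

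*Calr*, a lectin chaperone of glycoproteins, had 1034 to 1225 CPM at E18.5 and 683, 479 and 550 CPM at P1 (adjusted p = 0.00838, edgeR). *Uggt1*, which marks misfolded glycoproteins for another round of folding, had 218 to 263 CPM and then 144, 87.0 and 71.0 CPM (adjusted p = 0.00653, edgeR). *Ero1b*, the oxidase that recharges disulfide isomerases in β cells, had 677 to 799 CPM and then 482, 306 and 202 CPM (adjusted p = 0.00488, edgeR). All 3 were lowest in P1 2 or P1 3. *Txndc5* and *Ppib*, a thioredoxin domain protein and a prolyl isomerase, were the members with overlapping groups besides *Dnajb9*, and *Txndc5* had the only positive difference of the list (0.06, adjusted p = 0.904, edgeR).

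**Figure D4:**
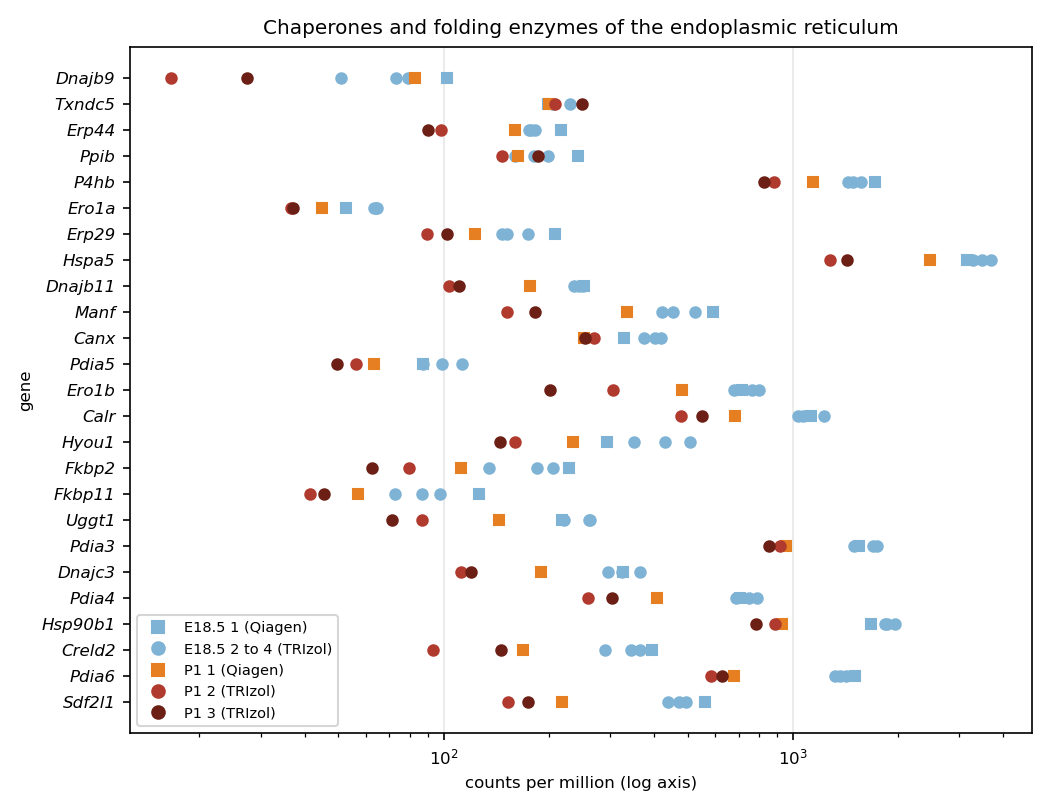
CPM (log axis) of the 25 ER chaperones and folding enzymes in the 7 libraries, ordered by the difference of P1 1 from the E18.5 mean. The fetal points lie right of all 3 P1 points in 22 genes, with P1 1 (orange squares) between the other neonates and the fetuses for many of them, such as *Hspa5* at 2473 CPM.

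In P1 1 alone, inside the fetal range by summed myeloid and acinar share, 22 of 25 members lay below all 4 fetal libraries, where 18.7% of all genes did. The list's median was -0.62 there, as was that of the 24 acinar genes, of which 11 lay below the fetal range. The part of acinar cells in the chaperone values was not tested. The 27 hormone and granule genes had a median of -0.13 in the same library, with 8 members below the fetal range. In P1 2 and P1 3 the order differed: the chaperone medians were -1.22 and -1.16 and the hormone and granule medians -1.11 and -1.70. The number of chaperones called fell to 0 with the stromal term (list median -0.79, 13 lower at an unadjusted p below 0.05, edgeR; 0.0684% of all genes were called lower) and to 1 without P1 3 (median -0.96; 0.128% of all genes). It was 15 without P1 1 (8.48% of all genes). P1 1 also carries the kidney genes described above, and the part of kidney cells in its values was not tested. At later ages *Hsp90b1* averaged 701 ± 335 CPM at P7 (SD, n = 3), 1071 ± 88.3 CPM at P10 (SD, n = 5) and 1140 ± 224 CPM in ICR adults (SD, n = 21), each below the fetal mean of 1833 ± 120 CPM (SD, n = 4).

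Promoters of these genes are shown because members of the list moved together and are known to share the ER stress response element. It is written here as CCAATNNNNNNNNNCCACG and is bound by the CCAAT factor NF-Y with ATF6 or XBP1. It was searched on both strands, from 250 bases before to 50 bases after each start site in the RefSeq promoter table (GRCm38.p6). It was found for 8 of the 22 list members with a promoter there (36.4%) and for 37 of all 27025 genes (0.137%). It was also found for 2 of 11 genes of ER-associated degradation (18.2%) and for none of the 15 translocon genes or the 8 stress sensors and factors. Of the 8, *Hsp90b1*, *Hspa5*, *Calr*, *Ero1b*, *Pdia6* and *Dnajc3* fell, and *Canx* and *Creld2* did not pass the test. The 250 bases before the start are printed 5′ to 3′ on the gene's strand for 4 members that fell, with the fixed letters of each match in capitals. They lie at chr10:86705445-86705694 (minus strand), chr2:34771840-34772089 (plus strand), chr8:84846932-84847181 (minus strand) and chr12:17266339-17266588 (plus strand), in the order given.
Hsp90b1: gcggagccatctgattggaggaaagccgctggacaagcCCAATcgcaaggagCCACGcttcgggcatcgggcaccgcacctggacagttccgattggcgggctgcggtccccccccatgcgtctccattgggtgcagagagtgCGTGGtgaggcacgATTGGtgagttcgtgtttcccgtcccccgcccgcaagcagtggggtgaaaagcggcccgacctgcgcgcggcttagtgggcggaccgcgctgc
Hspa5: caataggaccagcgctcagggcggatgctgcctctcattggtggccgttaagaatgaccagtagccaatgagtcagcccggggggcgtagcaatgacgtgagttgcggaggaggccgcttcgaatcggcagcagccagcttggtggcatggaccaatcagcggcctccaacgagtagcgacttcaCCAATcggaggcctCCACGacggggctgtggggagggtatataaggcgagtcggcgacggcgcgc
Calr: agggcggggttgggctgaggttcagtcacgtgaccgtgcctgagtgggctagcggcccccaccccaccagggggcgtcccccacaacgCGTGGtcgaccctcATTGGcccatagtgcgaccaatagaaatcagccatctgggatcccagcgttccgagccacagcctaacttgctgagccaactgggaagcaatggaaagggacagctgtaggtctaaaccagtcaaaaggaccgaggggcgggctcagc
Pdia6: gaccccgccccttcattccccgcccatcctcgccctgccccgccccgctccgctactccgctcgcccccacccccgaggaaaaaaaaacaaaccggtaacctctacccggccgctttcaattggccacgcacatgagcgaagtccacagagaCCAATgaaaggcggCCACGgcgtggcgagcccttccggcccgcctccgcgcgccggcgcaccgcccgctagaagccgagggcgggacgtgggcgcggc
*Hsp90b1* holds the element at 2 places, 1 in each orientation, and the others hold it at 1 place. A match is a stretch of letters and not a measured binding site.

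The neighbouring steps of the secretory pathway had lower medians as well, with smaller differences and with P1 1 nearer to the fetal range. Every call given for them below was lost with the stromal term and without P1 3, where 0.0684 and 0.128% of all genes were called lower. At an unadjusted p below 0.05, 5 and 7 genes of ER-associated degradation and 5 and 12 of the translocon list were lower in those fits (edgeR). So were 1 and 3 of vesicle transport and 2 and 4 of the sensors and factors. In ER-associated degradation, which returns misfolded proteins to the cytosol, 6 of 14 genes fell (median -0.77, P1 1 -0.29). *Derl2*, a channel component of that pathway, had 153 to 188 CPM at E18.5 and 114, 75.6 and 60.9 CPM at P1 (-1.04 ± 0.24, adjusted p = 0.00305, edgeR), and *Derl1*, *Edem1* and *Ube2j1* fell too. Among translocon, signal recognition and signal peptidase genes 9 of 21 fell (median -0.76, P1 1 -0.25). *Sec61b*, a subunit of the protein channel into the ER, had 328 to 530 CPM and then 296, 175 and 169 CPM (-1.05 ± 0.26, adjusted p = 0.00701, edgeR). *Srp72*, *Srp68* and *Srpr*, of the signal recognition particle and its receptor, were also called lower. Vesicle transport to the Golgi had 2 of 16 lower, the cargo receptor *Lman1* (-1.27 ± 0.33) and its partner *Mcfd2* (-0.60 ± 0.20). Of the unfolded protein sensors and factors, *Ern1*, the sensor IRE1α, and *Xbp1*, the factor it activates by splicing, fell, 2 of 9. *Xbp1* went from 299 to 373 CPM to 285, 182 and 185 CPM (-0.61 ± 0.18, adjusted p = 0.0224, edgeR). The genes of the integrated stress response showed no common direction. Of these, 3 of 26 rose (*Cebpb*, *Ppp1r15a*, *Psat1*) and 1 fell, the glycyl-tRNA synthetase *Gars*, shares near the 8.63 and 3.42% of all genes.

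The receptor for the lactogens fell at birth. *Prlr* lies at chr15:10177238-10349190 (GRCm38.p6) and codes for the receptor through which prolactin and the placental lactogens act on β cells. Its levels were 199 to 201 CPM in E18.5 1, 2 and 3, 144 CPM in E18.5 4, and 61.9, 48 and 43.6 CPM in P1 1, 2 and 3. The 3 neonates lay within a narrow band, and even the lowest fetal library lay far above the highest of them. The difference was -1.91 ± 0.31 (adjusted p = 6.35e-05, edgeR). *Prlr* was called without each of the 7 libraries (adjusted p 0.000138 to 0.00366) and with the stromal term (-1.66, adjusted p = 0.00673). It averaged 160 ± 122 CPM at P7 (SD, n = 3), 306 ± 105 CPM at P10 (SD, n = 5) and 1095 ± 269 CPM in adults (SD, n = 21).

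The other genes of the lactogen receptor and STAT5 list moved in both directions. Of the 15 members, 2 fell (*Prlr* and *Tph2*) and 3 rose (*Socs3*, *Socs1* and *Bcl6*), with 10 negative differences, a median of -0.44, and 4 members below every fetal library in all 3 P1 libraries. *Ccnd2*, a cyclin of the G1 phase, was among those 4, at 655, 772, 552 and 561 CPM at E18.5 and 467, 381 and 309 CPM at P1, and did not pass the test (-0.78 ± 0.31, adjusted p = 0.0842, edgeR). *Cish*, a feedback inhibitor induced by STAT5, had 86.4 to 133 CPM at E18.5 and 96.4, 69.5 and 47.7 CPM at P1 (-0.54 ± 0.42, adjusted p = 0.438, edgeR). *Socs2*, another feedback inhibitor, had 30.4 to 63.5 CPM and then 44.7, 54.6 and 36.6 CPM (-0.08 ± 0.26, adjusted p = 0.897, edgeR, with a sign that turned to 0.01 under RLE size factors or DESeq2). Both overlapped the fetal range in P1 1. *Socs3*, which many cytokines induce, had 12.5 to 59.3 CPM at E18.5 and 27.5, 128 and 211 CPM at P1 (2.08 ± 0.43, adjusted p = 0.00109, edgeR), so its rise lay in the 2 libraries with more stroma and myeloid genes. With the stromal term *Prlr* alone of the list was called. *Ccnd2*, *Cish* and *Socs2* were picked out after their values had been seen.

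Genes for serotonin, which β cells make under lactogen control in pregnancy, were evenly divided in sign but not in calls. Of 12 tested, 6 had a negative and 6 a positive difference (median -0.10), and 4 fell (*Ddc*, *Slc18a1*, *Maob* and *Tph2*) while 1 rose (*Maoa*). Of all genes, 3.42% were called lower and 8.63% higher. Below every fetal library in all 3 P1 libraries lay 4 of the list and 8.30% of all genes. With the stromal term or without P1 3 none of the 12 was called (edgeR; 4 lower and 1 higher, and 3 lower and 1 higher, at an unadjusted p below 0.05). *Tph2*, one of the tryptophan hydroxylases that start serotonin synthesis, had 10.7, 13, 11.6 and 7.55 CPM at E18.5 and 6.0, 4.41 and 1.46 CPM at P1 (-1.46 ± 0.51, adjusted p = 0.0487, edgeR). *Tph1*, the other one, had 32.6, 27.6, 19.7 and 26.6 CPM and then 16.6, 7.70 and 6.12 CPM, without overlap, but did not pass the test (-1.45 ± 0.71, adjusted p = 0.170, edgeR). *Ddc*, which makes serotonin from 5-hydroxytryptophan, had 146 to 188 CPM and then 121, 52.3 and 63 CPM (-1.10 ± 0.26, adjusted p = 0.00468, edgeR). *Maob*, a monoamine oxidase, had 310 to 321 CPM and then 191, 129 and 90.1 CPM. In each of these the P1 1 value lay between the fetal and the other neonatal values.

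The genes that define the β cell were lower in the neonatal libraries, to a degree that followed the library. Of 20 β cell transcription factors 6 fell and none rose, where 3.42% of all genes fell. Their medians were -0.33, -0.81 and -1.33 in P1 1, 2 and 3. *Nkx6-1*, a factor that keeps β cell identity, had 161, 211, 193 and 187 CPM at E18.5 and 138, 71.9 and 59.3 CPM at P1 (-1.16 ± 0.33, adjusted p = 0.0160, edgeR). *Neurod1*, *Foxa2*, *Pax6* and *Pdx1* also fell. *Mafa*, the factor of mature β cells, had 47.3 to 94.3 CPM and then 62.8, 35.9 and 28.9 CPM (adjusted p = 0.616, edgeR), with P1 1 inside the fetal range.

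Of 27 hormone and granule genes 8 fell, with medians of -0.13, -1.11 and -1.70 in P1 1, 2 and 3 (3.42% of all genes fell). *Slc30a8*, the zinc transporter of insulin granules, had 623 to 755 CPM and then 399, 315 and 157 CPM (-1.35 ± 0.35, adjusted p = 0.00864, edgeR), and *Rab3a*, *Ptprn2* and *Sytl4*, of granule traffic, fell too. *Ins1* had 75343, 67209, 56419 and 49234 CPM and then 47706, 25193 and 15385 CPM (-1.20 ± 0.42, adjusted p = 0.0474, edgeR), and *Ins2* did not pass (-1.16 ± 0.45, adjusted p = 0.0810, edgeR). *Chga*, the granule protein chromogranin A, went the opposite way in P1 1: 12922 CPM there, 6777 to 7958 CPM at E18.5, and 2572 and 1620 CPM in P1 2 and P1 3 (picked out after its values were seen; -0.62 ± 0.41, adjusted p = 0.342, edgeR). Among 23 genes of glucose sensing and incretin receptors 6 fell. *Gpr119*, a lipid receptor that raises cyclic AMP, had even neonatal values, at 23.8 to 31.3 CPM and then 9.34, 9.08 and 7.96 CPM (-1.59 ± 0.43, adjusted p = 0.0107, edgeR). *G6pc2*, *Gpd2* and *Adra2a*, the α2 adrenergic receptor, fell as well. *Slc2a2*, the glucose carrier GLUT2, lay below the fetal range of 366 to 453 CPM in all 3 P1 libraries, at 320, 177 and 113 CPM, and did not pass the test (adjusted p = 0.0665, edgeR). *Gcg*, the hormone of α cells, had 127 CPM in P1 1 and 1297 and 1569 CPM in P1 2 and P1 3, against 280 to 382 CPM in the TRIzol fetal libraries and 1360 CPM in E18.5 1.

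Of 12 maturity markers 5 fell and none rose, among them *Ero1b*, *Robo2*, *Ppp1r1a* and *G6pc2* (3.42% of all genes fell). *Ucn3*, the late maturity hormone urocortin 3, had 72 to 82.2 CPM before birth and 73.1 CPM in P1 1, inside that range, against 41.5 and 28.2 CPM in P1 2 and P1 3 (-0.75 ± 0.45, adjusted p = 0.281, edgeR). With the stromal term no gene of the transcription factor, granule, glucose sensing or maturity lists was called (5, 6, 7 and 6 lower at an unadjusted p below 0.05, edgeR). Of all genes, 0.0684% were called lower in that fit, so few calls were to be had for any list. Without P1 3 none was called either (6, 5, 7 and 5 lower at an unadjusted p below 0.05, edgeR), where 0.128% of all genes were called lower. Without P1 1 the numbers lower were 9, 20, 10 and 5, where 8.48% of all genes were.

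Genes of fatty acid oxidation and ketogenesis moved up in part. Of 27, 5 rose (*Acadm*, *Cpt1a*, *Plin2*, *Angptl4* and *Acaa2*) and 1 fell (*Hadh*), with a median of 0.40. Of all genes, 8.63% rose and 3.42% fell. The medians were 0.62, 0.35 and 0.10 in P1 1, 2 and 3. In P1 1, 16 of 27 lay above all fetal libraries, where 23.3% of all genes did, and 7 did so in all 3 P1 libraries. In P1 3, 9 lay above and 12 below the fetal range, where 5989 and 4915 of all 16092 genes did. Without P1 1, 3 genes of the list were called higher and 5 lower by edgeR, against 1891 and 1390 of all 16389 genes. *Cpt1a*, the carnitine acyltransferase that admits long chain fatty acids to mitochondria, had 10.9, 15.6, 18.4 and 13.1 CPM at E18.5 and 59.6, 33.5 and 16.7 CPM at P1. It was highest in the library with least stroma and inside the fetal range in P1 3 (1.36 ± 0.37, adjusted p = 0.0116, edgeR, and 0.185 without P1 1). *Angptl4*, a lipase inhibitor and target of the fatty acid receptors PPAR, had 0.715, 0.800, 0.247 and 0.691 CPM and then 11.5, 28.6 and 7.71 CPM, without overlap (4.70 ± 1.34, adjusted p = 0.0169, edgeR, and at most 0.0813 with a library left out). At P7 it stood at 40.9 ± 35.1 CPM (SD, n = 3), at P10 at 0.533 ± 0.358 CPM (SD, n = 5) and in adults at 0.218 ± 0.310 CPM (SD, n = 21). The part of other cells in the P7 value was not tested.

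E18.5 1, the library with intestinal genes, bears on this list. *Acaa2*, a thiolase of β-oxidation, had 83.1 CPM there and 13.6, 17 and 19.3 CPM in the other fetal libraries, against 59.8, 57.7 and 61.6 CPM at P1 (1.02 ± 0.34, adjusted p = 0.0418, edgeR). The 3 TRIzol fetal libraries lay below all neonates and E18.5 1 above them. Without E18.5 1 the list still had 5 genes higher and 1 lower. *Plin2*, which coats lipid droplets, had 25 CPM in E18.5 1, 6.06 to 8.03 CPM in the other fetuses, and 21.1, 56.6 and 40.4 CPM at P1 (1.81 ± 0.43, adjusted p = 0.00467, edgeR). *Acadm*, a medium chain dehydrogenase, had 17.2 to 33.5 CPM and then 54.3, 34.5 and 41.9 CPM, without overlap (0.99 ± 0.27, adjusted p = 0.0115, edgeR). The proximal tubule of the kidney also burns fat, and the part of kidney RNA in the values of P1 1 was not tested. With the stromal term edgeR called no gene of the list (median 0.23; 5 higher and 1 lower at an unadjusted p below 0.05).

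Genes of oxidative phosphorylation had negative differences in all 30 members (median -0.38), with only *Uqcrb*, a subunit of complex III, called (3.42% of all genes were called lower) (-0.64 ± 0.21, adjusted p = 0.0394, edgeR). In P1 1 their median was 0.10.

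**Figure D5:**
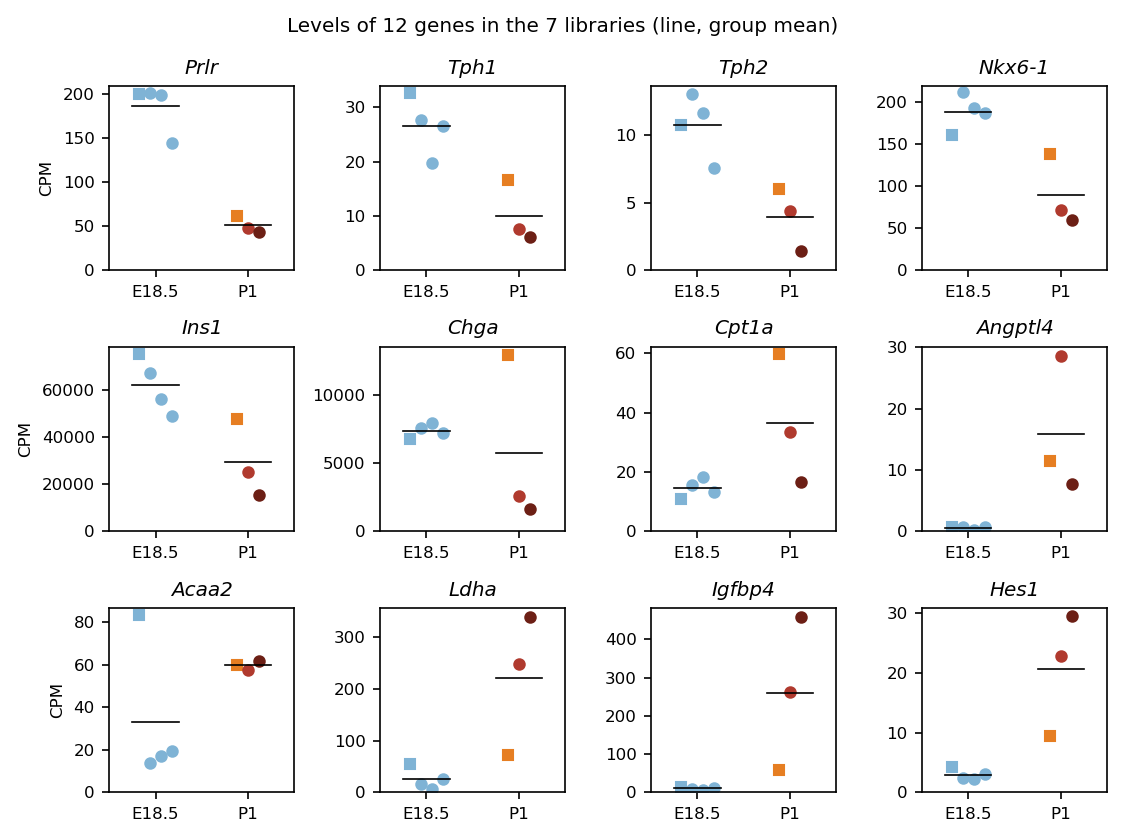
CPM of 12 genes in the E18.5 and P1 libraries, 1 point per library (squares Qiagen, circles TRIzol; orange P1 1, red P1 2, dark red P1 3) and a line at each group's mean, each panel with its own axis from 0. *Prlr* is evenly low in the 3 neonates (43.6 to 61.9 CPM), *Cpt1a* is highest in P1 1, and *Acaa2* stands at 83.1 CPM in E18.5 1.

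Disallowed genes, which most tissues express and adult β cells keep off, were higher after birth. Of 26, 15 rose and none fell (median 3.36), where 8.63% of all genes rose. In all 3 P1 libraries, 18 lay above the fetal range, where 12.7% of all genes did. In P1 1 the list's median was 1.59, and those of the stromal, endothelial and myeloid markers were 1.72, 1.83 and 0.58. Without P1 2 and P1 3 the median difference of the list was 0.86. *Pdgfra* belongs to both the disallowed and the stromal list, and the part of other cells in these values was not tested. *Ldha*, the lactate dehydrogenase that adult β cells lack, had 55.0, 15.4, 6.22 and 26.7 CPM at E18.5 and 72.3, 247 and 339 CPM at P1 (3.44 ± 0.87, adjusted p = 0.00784, edgeR). *Slc16a1*, the lactate and pyruvate carrier, had 0.282 to 3.18 CPM and then 7.45, 18.7 and 28.3 CPM (3.48 ± 1.09, adjusted p = 0.0280, edgeR). The order of both across the P1 libraries was that of the stromal share. *Zyx*, a focal adhesion protein, rose by 2.60 ± 0.54. *Parp3*, a poly(ADP-ribose) polymerase family member, was more even, at 0.263 to 1.00 CPM and then 1.71, 2.05 and 2.39 CPM (1.93 ± 0.44, adjusted p = 0.00285, edgeR). *Igfbp4*, a binding protein for insulin-like growth factors, had 5.88 to 14.8 CPM and then 58.3, 261 and 459 CPM. It was the only member called with the stromal term (2.31, adjusted p = 0.0383, against 4.55 ± 0.76, adjusted p = 0.000106, edgeR, without it). In glycolysis, *Ldha*, *Pfkp* and *Eno2* rose of 19 genes, with a list median of 0.10.

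Imprinted genes, many of which control fetal growth, split. Of 18 tested, 7 rose and 3 fell, where 8.63 and 3.42% of all genes did. With the stromal term edgeR called none of them (median 0.13 in place of 0.60; 7 higher and 3 lower at an unadjusted p below 0.05), and without P1 3 it called 3 higher. *Cdkn1c*, a brake on the cell cycle, had 16.9 to 79 CPM at E18.5, 46.9 CPM in P1 1, and 504 and 944 CPM in P1 2 and P1 3 (3.99 ± 0.77, adjusted p = 0.000649, edgeR). *Igf2*, the fetal growth factor, had 14.5 to 78.1 CPM, 49.6 CPM in P1 1, and 386 and 694 CPM (3.54 ± 0.87, adjusted p = 0.00634, edgeR). *Plagl1*, a zinc finger factor, followed the same order, and for these 3 genes P1 1 was inside the fetal range or below it. *Magel2* had no count in any fetal library or in P1 1, and 4.18 and 5.14 CPM in P1 2 and P1 3. *Mest* was above the fetal range in P1 1 too, at 58.5 CPM against 4.16 to 24.6 CPM, with 583 and 861 CPM in the others. *Nnat*, neuronatin, which assists signal peptidase in β cells, took the other direction in all 3: 3209, 3751, 3375 and 2569 CPM and then 1312, 1195 and 711 CPM (-1.59 ± 0.55, adjusted p = 0.0477, edgeR, and up to 0.257 with a library left out). It continued to 163 CPM at P7, 231 CPM at P10 and 26.7 ± 12.3 CPM in adults (SD, n = 21). *Zdbf2*, also imprinted, went from 34.0 to 44.5 CPM to 20.9, 14.3 and 10.9 CPM (-1.55 ± 0.40, adjusted p = 0.00853, edgeR). *Dlk1* did not pass the test and had 361 CPM in P1 1 against 461 to 592 CPM at E18.5, with 687 and 1101 CPM in P1 2 and P1 3. In the insulin-like growth factor axis 7 of 15 rose, where 8.63% of all genes did, *Igfbp2*, *Igfbp5*, *Igfbp4* and *Igf2* with the smallest adjusted p. With the stromal term 1 did so (0.491% of all genes were called higher). Without P1 3 it was also 1 (278 of all 16351 genes).

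Of 21 fetal and progenitor genes 2 rose and none fell, near the 8.63% of all genes that rose. *Hes1*, a Notch target that holds back endocrine differentiation, had 4.23, 2.40, 2.25 and 3.09 CPM at E18.5 and 9.43, 22.9 and 29.5 CPM at P1. All 3 neonates were above the fetal range (2.82 ± 0.40, adjusted p = 1.17e-05, edgeR), with a highest adjusted p of 0.000857 when single libraries were left out and 0.00514 with the stromal term (2.26). The order of *Hes1* across the P1 libraries was that of the stromal share, and without P1 2 and P1 3 its difference was 1.46. The part of other cells in its values was not tested. *Amotl2*, an angiomotin family member, rose as well (2.08 ± 0.40). Proliferation genes were not called in either direction (0 of 28, of which *Mcm4* had the smallest adjusted p, 0.329, edgeR; none had an unadjusted p below 0.05, DESeq2 called 0 and voom 1 higher), and the P1 libraries differed: 22 of 28 lay below the fetal range in P1 1 and 20 above it in P1 3, where 37.2% of all genes lay above. *Mki67*, a marker of dividing cells, had 37.5, 65.2, 68.1 and 64.6 CPM at E18.5 and 24, 54.1 and 53.2 CPM at P1.

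Inflammatory and handling genes were higher in P1 2 and P1 3. Of 20 NF-kB targets and cytokines 14 rose and 2 fell, with medians of 0.51, 2.80 and 3.89 in P1 1, 2 and 3. *Ccl2*, a chemokine that draws monocytes, had at most 0.327 CPM at E18.5, 0.152 CPM in P1 1, and 32.8 and 30 CPM in P1 2 and P1 3. *Nfkbia*, the inhibitor induced by NF-kB, had 31.9 to 73.2 CPM, 64.4 CPM in P1 1, and 123 and 232 CPM. P1 1 was inside or below the fetal range for both. The chemokines *Cxcl1* and *Ccl7* were likewise at most 0.400 CPM at E18.5 and at most 0.381 CPM in P1 1, and between 17.6 and 59.9 CPM in P1 2 and P1 3. Of 23 genes that tissue dissociation induces 9 rose, among them the early factors *Ier3*, *Klf6*, *Nr4a1* and *Klf2* (medians 0.62, 2.24 and 2.78). *Klf6* had 24.9 CPM in P1 1, inside the fetal range of 18.8 to 48.1 CPM, and 178 and 187 CPM in the others. Of 23 interferon response genes 5 rose, among them *Bst2*, *Gbp2*, *Oasl2* and *Gbp3*. The glucocorticoid response had 1 of 13 higher (*Tsc22d3*, 1.63 ± 0.36), the hypoxia response 2 of 17 (*Adm* and *Bhlhe40*), and the clock genes 1 higher (*Bhlhe40*) and 1 lower (*Clock*) of 19. These counts are near the 8.63% of all genes called higher and the 3.42% called lower. No cholesterol synthesis gene of 21 was called by edgeR (2 lower at an unadjusted p below 0.05) or DESeq2, and voom called 4 lower. Myeloid and stromal shares were likewise higher in P1 2 and P1 3. With the stromal term edgeR called none of the NF-kB (median 1.16 in place of 2.64), dissociation (0.62 in place of 1.87) or interferon genes (0.76 in place of 1.33); 3, 3 and 4 of them were higher at an unadjusted p below 0.05. With the myeloid term 0, 1 and 0 were called higher (medians 1.00, 1.15 and 0.25; 5, 7 and 1 higher at an unadjusted p below 0.05).

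The calls that did not depend on a single library were few among the falls. In the fit to all libraries and in each of the 7 that left 1 of them out, 247 genes were called higher (1.53%) and 13 lower (0.0808%). The 12 largest of these falls at 10 CPM or more, with predicted genes left out, were *Prlr*, *Hsp90b1*, *Zfp568*, *Plcxd2*, *Sstr3*, *Pgap1*, *Ppm1l*, *Atp8a1*, *Tspan7*, *Tbl1x*, *Fam3a* and *Gcsh*. *Zfp568*, a zinc finger repressor that silences a placental *Igf2* transcript, had 22.2, 35.5, 37.3 and 32.6 CPM at E18.5 and 10.5, 8.94 and 7.77 CPM at P1 (-1.79 ± 0.35, adjusted p = 0.000552, edgeR). It was called with the stromal term too (-1.84, adjusted p = 0.00837), as were *Fam3a*, *Tbl1x*, *Gcsh*, *Pgap1* and *Sstr3*. *Sstr3*, a somatostatin receptor, had 41.2 to 56.6 CPM and then 29.8, 15.8 and 14.8 CPM. *Tspan7*, a membrane tetraspanin of islet cells, had 702 to 1036 CPM and then 563, 340 and 230 CPM. *P2ry1*, the ADP receptor that aids insulin secretion, had 79.4 to 145 CPM and then 23.3, 40.1 and 26.4 CPM (-1.78 ± 0.44, adjusted p = 0.00578, edgeR). It was lowest in P1 1 and kept its call with the stromal term (-2.12, adjusted p = 0.0160), but not without each library in turn (highest adjusted p 0.0661). *Zfp568* stayed near 8.10 to 11.1 CPM at P7, P10 and in adults, whereas *Prlr* stood at 1095 CPM in adults.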

How the data were processed

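The authors deposited expected counts per gene, for which the submitters' processing notes list bcl2fastq 2.20.0.422, Bowtie 1.2.2, RSEM 1.3.0 and the mm10 build; libraries came from the SMART-Seq v4 and Nextera XT kits, per the labels' protocols, which do not mark strand, so antisense and overlapping genes cannot be told apart. The 20306 genes of the 63 libraries were rounded to whole counts (48.5% of values were not whole), scaled by the trimmed mean of M-values and filtered with filterByExpr, which left 16092. Testing used edgeR 4.0.16 (R 4.3.3) quasi-likelihood fits over all 63 libraries, with group and extraction as terms and the contrast P1 minus E18.5, and Benjamini-Hochberg adjustment over all genes tested. ± after a log2 difference is its standard error. CPM are the scaled values, with a prior count of 1 where log2 values were taken. Alternatives included DESeq2 1.42.0 and voom with sample weights (limma 3.58.1). The code was tested on simulated data. Library sizes of 34088890 to 43554769 counts limit precision little beside the spread between libraries. Marker shares were compared by exact two-sided permutation tests.

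The members and lists were chosen with earlier results of these data known. Genes named are the 12 largest rises and falls (called, no overlap between groups, 10 CPM or more in the higher one), the same number called in all 8 fits (all libraries, and each of 7 left out), up to 4 called members of each list by adjusted p (2 where none was called), and anchor genes, some of which are not reported here; other list members were picked after their values were seen. Gene models and numbered predicted genes were not named. The deposited normalized matrix was not used.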

Additional observations from a re-analysis of the deposited data

Results flagged for a closer look

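Among the 4 fetal libraries, 154 sets of values (136 genes and 18 marker shares) were examined for a library far from the other 3, and 23 had one. E18.5 1, a Qiagen library, was the distant one for 15 of them and E18.5 4 for 8. The kidney and intestinal lists and some of the genes were chosen after their values had been seen. The count of 23 therefore cannot be set against a chance rate.

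E18.5 1 held 0.278% of counts in intestinal epithelium genes, 0.0789% in liver genes, 0.0188% in neutrophil genes and 0.0016% in kidney genes, the highest of the 4 each time. Its level was the highest for *Acaa2* (83.1 CPM against 13.6 to 19.3), *Acadm* (33.5 against 17.2 to 18.9), *Hadh* (844 against 593 to 630), *Plin2* (25 against 6.06 to 8.03), *Gcg* (1360 against 280 to 382), *Cdkn1c* (79 against 16.9 to 27.2), *Gbp2* (1.2 against 0.267 to 0.382), *Oasl2* (3.07 against 1.00 to 1.16) and *Chil3* (0.658 against at most 0.0182). It was the lowest for *Mki67* (37.5 against 64.6 to 68.1) and *Ern1* (11.7 against 14.9 to 15.1).

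E18.5 4 held 0.331% in acinar genes against 0.0641 to 0.106%, and 0.0621% in erythroid genes against at most 0.00307%. It was the lowest for *Prlr* (144 CPM against 199 to 201). It was the highest for *Klf6* (48.1 against 18.8 to 23.8), *Ppp1r15a* (139 against 33.0 to 42.5), *Maoa* (7.46 against 4.6 to 4.97), *Tpsb2* (2.82 against at most 0.0564) and *Tpsab1* (0.182 against 0 in the other 3). The part of other cells in these values was not tested.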

How the results depend on the processing

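The count of 1938 genes (1388 higher, 550 lower) moved with the tool, the libraries and 2 of 3 terms for other cells, and the cause was not tested. Voom with sample weights gave 6359 (3726 and 2633), a stromal term 90 (79 and 11), a myeloid term 193 (151 and 42), an acinar term 1635, and the fit without P1 2 and P1 3 32 (32 and 0). The Qiagen libraries alone, 1 a group, gave 0 (0 and 0) in edgeR, with 426 at an unadjusted p below 0.05. TRIzol libraries alone gave 1095 lower, RLE size factors 351 lower, no extraction term 339 lower, and a threshold of at least 2-fold 191 lower. Leaving out single libraries gave 299 to 3281 called, 278 to 1891 higher and 21 to 1390 lower: 3281 without P1 1, 950 without P1 2, 299 without P1 3, 1610 without E18.5 1, 954 without E18.5 2, 864 without E18.5 3 and 1351 without E18.5 4. RLE size factors put the median of all genes at 0.129 (0.041 in the main fit) and 81.1% of calls on the higher side (71.6%). The differences in stromal, myeloid and acinar share kept their sign in all 10 alternatives each (3.96 to 6.91, 2.05 to 4.40 and 0.52 to 2.53 on the log2 scale). With a library left out, or with TRIzol alone, the exact test of the shares cannot reach 0.05.

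Of 136 genes given by name, 118 were called, of which 107 kept their sign and lost the call with the stromal term, 87 with the myeloid term, 109 without P1 2 and P1 3, 81 without P1 3, 7 with DESeq2 and 2 with voom. Signs turned for *Socs2* (0.01 with DESeq2, 0.01 with RLE, 0.18 in TRIzol, 0.14 with voom, and -0.27 to 0.06 with single libraries left out, above 0 without E18.5 1, E18.5 3 or P1 3), *Dlk1* (-0.20 with a stromal term, -0.02 to 0.75 with single libraries left out, below 0 without P1 3), *Gcg* (-0.41 with a myeloid and -0.44 with a stromal term) and *Txndc5* (-0.12 with a myeloid term, -0.06 to 0.11 with single libraries left out, below 0 without P1 3). In the Qiagen libraries alone they turned for *Acaa2* (-0.46), *Bst2* (-0.42), *Ccl2* (-0.86), *Cdkn1c* (-0.74), *Chga* (0.94), *Dlk1* (-0.53), *Gbp2* (-0.86), *Gbp3* (-0.24), *Gcg* (-3.41), *Igf2* (-0.64), *Mafa* (0.42), *Oasl2* (-0.15), *Pax6* (0.00), *Plagl1* (-0.62), *Plin2* (-0.23) and *Tsc22d3* (-0.19). Without P1 2 and P1 3 they turned for *Bst2* (-0.44), *Ccl2* (-1.39), *Ccl7* (-0.73), *Chga* (0.57), *Dlk1* (-0.57), *Dnajb9* (0.05), *Gbp2* (-0.33), *Gcg* (-2.57), *Igf2* (-0.41), *Klf6* (-0.23), *Mafa* (0.39), *Plagl1* (-0.61), *Psat1* (-0.11) and *Txndc5* (-0.08). With only the E18.5 and P1 libraries in the fit, 133 of the named genes were tested. Of these, 39 kept their sign and lost the call, 7 gained one and 87 stayed the same. No paired analysis was possible because the replicate numbers only follow the order of the samples and pair no E18.5 library with a P1 library.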

Other observations

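Transcripts of 4 Y-linked genes (*Ddx3y*, *Eif2s3y*, *Kdm5d* and *Uty*) were present in every library, at 58.3, 78.4, 41 and 82.2 CPM in E18.5 1 to 4 and at 31.0, 125 and 140.0 in P1 1 to 3 (here per total counts, unscaled). How many animals of either sex a library holds is not given by the labels.

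On a gene by gene count, 11 of 12 liver genes and 3 of 8 erythroid genes tested lay above all 4 fetal libraries in P1 1, where 23.3% of all genes did. Their summed shares in P1 1, 0.0371% for liver and 0.0521% for erythroid genes, lay inside the fetal range, which reached 0.0789 and 0.0621%. None of these genes did so in all 3 P1 libraries.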
